A study of Homo sapiens with 24 samples.

Results

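The 19p12 zinc finger gene cluster is a stretch of the short arm of human chromosome 19, next to the centromere. Most of its protein-coding genes are KRAB zinc finger genes that arose by tandem duplication. The 667 regions described here are all those of the deposited region set that start from 19900000 up to 24600000 on chromosome 19 (genome build hg19), out of 153244 regions in all. They were chosen by position only, and no measured value entered the choice. Each region has a read count in each of 24 libraries, made by CUT&Tag, an assay in which an antibody against a histone mark guides the transposase Tn5 to cut and tag the DNA beside it. The 4 marks were H3K9me3, H3K4me3, H3K4me1 and H3K27ac. All cells were ventricular-like cardiomyocytes derived from H9, a human embryonic stem cell line, taken at day 15 of differentiation and made with a commercial differentiation kit, and each mark was profiled in 3 control libraries and 3 libraries with a knockdown (KD) of the gene ZNF436. ZNF436 itself encodes a KRAB zinc finger protein. How the knockdown was made, what the control cells received and how far ZNF436 was lowered are not given in the sources used here, and no label ties the 3 libraries of a group to separate cultures: a p-value here reflects the spread between those libraries alone, which may be technical. The cells were measured in bulk, so fewer cells that carry a mark and less of the mark per cell cannot be told apart. The cardiomyocyte identity was not checked on marker genes, because no gene annotation of hg19 was used here.

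As background, KRAB zinc finger proteins bind DNA through arrays of C2H2 zinc fingers and recruit the co-repressor TRIM28 (KAP1), which brings in the methyltransferase SETDB1 and leads to trimethylation of lysine 9 of histone H3 (H3K9me3), a mark of silent chromatin. Many of them bind transposable elements; ZNF91, a gene of this cluster, encodes a repressor of SVA retrotransposons. KRAB zinc finger genes are also known for a split pattern of their own: their exons that encode the zinc finger array, at the end of the gene, carry H3K9me3 in many cell types, while their promoters carry H3K4me3, the mark of active promoters. H3K4me1 marks enhancers and the flanks of promoters, and H3K27ac marks active enhancers and promoters. No hg19 annotation was used, so gene ends and promoters could not be assigned to regions, and the pattern is described below from the marks alone.

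The genes of the cluster were taken from a list of 32 KRAB zinc finger genes of 19p12, all of which matched the RefSeq gene table (GRCh38.p14) by symbol. There, 34 protein-coding genes and 97 pseudogenes lie from the first to the last listed gene. RefSeq promoter sequences, each 300 bases long (250 before the transcription start and 50 after it), were found for 26 of the 32. The promoters resemble each other: over 325 pairs the median identity was 76.6% (range 48.9% to 91%), against a median of 48.5% between these promoters and that of ZNF436. The 3 promoters below show this shared sequence, from ZNF91, ZNF43 and ZNF254, each written on its gene's strand (minus, minus and plus in that order). Capitals mark 3 motifs, searched on both strands: CCAATCAG (a CCAAT box), CTGTCACTCAGG and GGCTTCCGGG, which do not overlap each other. They are the words of 8, 12 and 10 letters found in the most of these promoters that share no run of 6 letters with one another, so their frequency in the cluster is a description.
ZNF91: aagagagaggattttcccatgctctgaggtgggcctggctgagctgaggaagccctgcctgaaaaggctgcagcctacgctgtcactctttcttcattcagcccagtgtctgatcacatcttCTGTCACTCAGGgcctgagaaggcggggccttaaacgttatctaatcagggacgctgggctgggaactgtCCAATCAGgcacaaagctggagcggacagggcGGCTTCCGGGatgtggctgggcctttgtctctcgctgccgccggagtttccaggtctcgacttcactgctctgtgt
ZNF43: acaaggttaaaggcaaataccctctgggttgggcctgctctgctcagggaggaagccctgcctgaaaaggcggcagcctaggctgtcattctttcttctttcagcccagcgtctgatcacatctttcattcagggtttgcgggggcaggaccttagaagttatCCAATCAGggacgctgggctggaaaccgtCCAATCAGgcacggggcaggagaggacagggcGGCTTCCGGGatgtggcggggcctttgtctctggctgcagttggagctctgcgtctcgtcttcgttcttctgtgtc
ZNF254: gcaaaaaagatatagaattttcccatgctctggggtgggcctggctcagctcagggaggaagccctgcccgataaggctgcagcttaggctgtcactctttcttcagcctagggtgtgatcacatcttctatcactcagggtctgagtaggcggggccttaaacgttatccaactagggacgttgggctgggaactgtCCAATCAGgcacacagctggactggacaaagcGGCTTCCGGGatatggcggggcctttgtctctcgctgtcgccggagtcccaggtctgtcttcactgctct
CCAATCAG was present in 26 of 26 promoters of the list, against 3.97% of 35116 promoters in the table. CTGTCACTCAGG was present in 17 of 26 (65.4%, against 0.108%) and GGCTTCCGGG in 20 of 26 (76.9%, against 0.436%). GGCTTCCGGG was also present in the ZNF436 promoter, where the other two motifs were not. The region counts are on another build than these promoters, so no promoter is paired with a region here.

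The depth in the cluster differed by mark. Each library held 11869 to 18197 counts there for H3K9me3, 16001 to 19940 for H3K4me3, 2022 to 3054 for H3K4me1 and 2742 to 3825 for H3K27ac, out of 2103185 to 2880412, 11023905 to 13933927, 3920283 to 4936265 and 2955710 to 3681687 counts per library. The members were narrow, with a median width of 476 bp (80 to 9782 bp) against 708 bp over all regions, and together covered 13.7% of the 4.7 Mb window. Of the 667 members, 77 were at least 2 kb wide. Levels are given below as CPM, counts per 1000000 of the library size after TMM scaling, where the library size is counted over the tested regions of that mark, and between members as CPM per kb of region.

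H3K9me3 was the mark found in the largest share of the members. A region was put in the class of a mark when its CPM per kb, averaged over the 6 libraries of that mark, was in the top 20% of all regions of the genome. Of the 667 members, 325 (48.7%) were in the H3K9me3 class and 49 (7.35%) in the H3K4me3 class, 5 were in both, and 298 in neither. The 5 were 10.2% of the cluster's H3K4me3 class and 1.54% of its H3K9me3 class, against 2.20% of each class over all regions. Only 13 members (1.95%) were in the H3K4me1 class and 23 (3.45%) in the H3K27ac class. The H3K9me3 class was crowded at its border, since the members just inside stood at 10.36, 10.40 and 10.41 CPM per kb and those just outside at 10.33, 10.33 and 10.31. The border of the H3K4me3 class lay low, with 0.647, 0.652 and 0.692 CPM per kb just inside and 0.573, 0.565 and 0.520 just outside. Members in the H3K9me3 class alone had a median of 13.2 CPM per kb of H3K9me3 and 0.0551 of H3K4me3, while members in the H3K4me3 class alone had 2.18 of H3K9me3 and 19.4 of H3K4me3. The classes were cut on these same 2 values, so their separate places in the plot of both marks follow from the class borders.

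**Figure D1:**
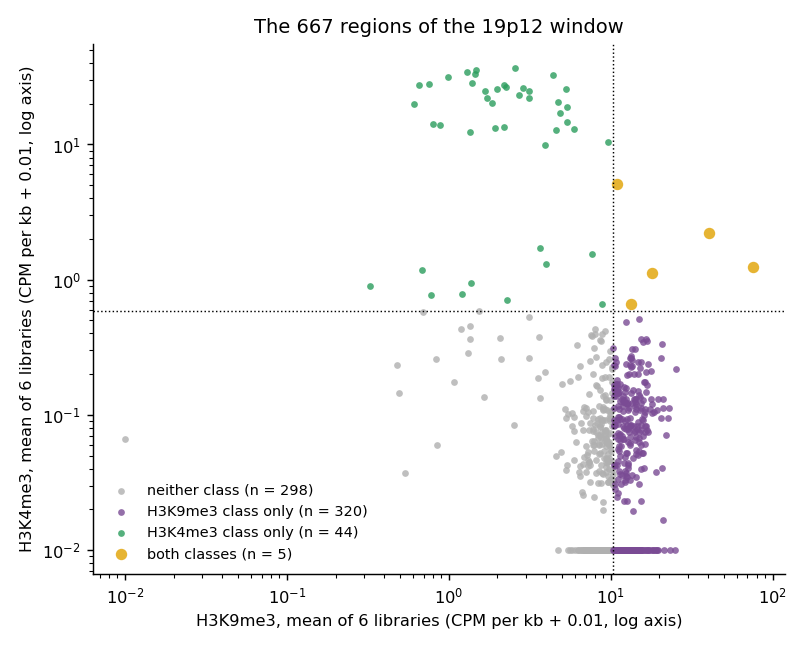
H3K9me3 against H3K4me3 in the 667 members, each as the mean of 6 libraries in CPM per kb plus 0.01 on log axes; the dotted lines are the class borders. The 320 members in the H3K9me3 class alone lie along the lower right, the 44 in the H3K4me3 class alone along the top left, and 5 are in both.

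The other large KRAB zinc finger cluster of the chromosome, taken here as the 655 regions of 2 windows of 19q13.4, had a like share of H3K9me3 (46.3% of its regions in the class) and more H3K4me3 (25.95%). Summed over regions and divided by their summed width, H3K9me3 was 11.05 ± 0.655 (SD, n = 6 libraries) CPM per kb in 19p12 and 9.43 ± 0.571 in 19q13.4, 1.17-fold higher in 19p12. H3K4me3 was 2.24 ± 0.0671 CPM per kb in 19p12 and 6.38 ± 0.0540 in 19q13.4, 2.85-fold lower in 19p12. H3K4me1 was 2.17-fold lower (0.892 ± 0.139 against 1.92 ± 0.199) and H3K27ac 2.21-fold lower (1.74 ± 0.174 against 3.82 ± 0.299). Each of the 4 ratios had the same direction in 6 of 6 libraries, with p = 0.031 in an exact two-sided sign-flip permutation test, the smallest p that 6 libraries allow, and 0.031 after adjustment over the 4 marks. Against the rest of chromosome 19 (4480 regions), H3K9me3 was 1.18-fold higher in 19p12 and H3K4me3 3.88-fold, H3K4me1 5.99-fold and H3K27ac 4.50-fold lower, each again with p = 0.031 in the exact test. These are ratios of summed levels. Counted by region, 48.7% of 19p12 and 19.7% of the rest of chromosome 19 (881 regions) were in the H3K9me3 class. The covered length differs between the clusters, at 643 kb of regions in 19p12 and 1053 kb in 19q13.4, over spans of 4.7 and 4.6 Mb. The higher H3K9me3 level of 19p12 is therefore per kb of region only: as a share of all H3K9me3 counts, 19q13.4 held more, 0.906 ± 0.0793% against 0.620 ± 0.0178% in control and 0.789 ± 0.0385% against 0.588 ± 0.0376% in knockdown (SD, n = 3 each).

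Within the cluster the marks were concentrated to different degrees. The 12 members with the most H3K4me3 held at least 50% of all H3K4me3 CPM of the cluster, while 67 members were needed for the same share of H3K9me3. The H3K4me3 class held 97.2% of the cluster's H3K4me3, 58.2% of its H3K27ac and 46.6% of its H3K4me1, and 6.24% of its H3K9me3. The 77 wide members held 49.6% of the H3K9me3.

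In steps of 100 kb along the window, H3K9me3 was highest in the last bin (chr19:24500001-24600000), at 615 CPM over the 6 libraries, against 362 in the next highest (chr19:23500001-23600000), a median of 140 over 47 bins and 2.18 in the lowest (chr19:20600001-20700000). The largest contributions to the last bin came from wide members, among them chr19:24561080-24568069 with 79.4 CPM, chr19:24551062-24557347 with 66.7 and chr19:24528394-24533418 with 56.3. The last bin is the edge of the window, on the side of the centromere, and no gene was assigned to it. Whether repeats or mappability raise its counts was not tested. A narrower window, which leaves out this bin and others at both ends, had 48.9% of its regions in the H3K9me3 class. The log2 ratio of its H3K9me3 density to that of 19q13.4 was 0.24. H3K4me3 was above 10 CPM in 22 of the 47 bins, of which 19 had a neighbour that was too and 3 stood alone, with 136 CPM in the highest (chr19:24200001-24300000) and a median of 2.82. H3K27ac was highest in the same bin as H3K4me3, at 132 CPM.

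**Figure D2:**
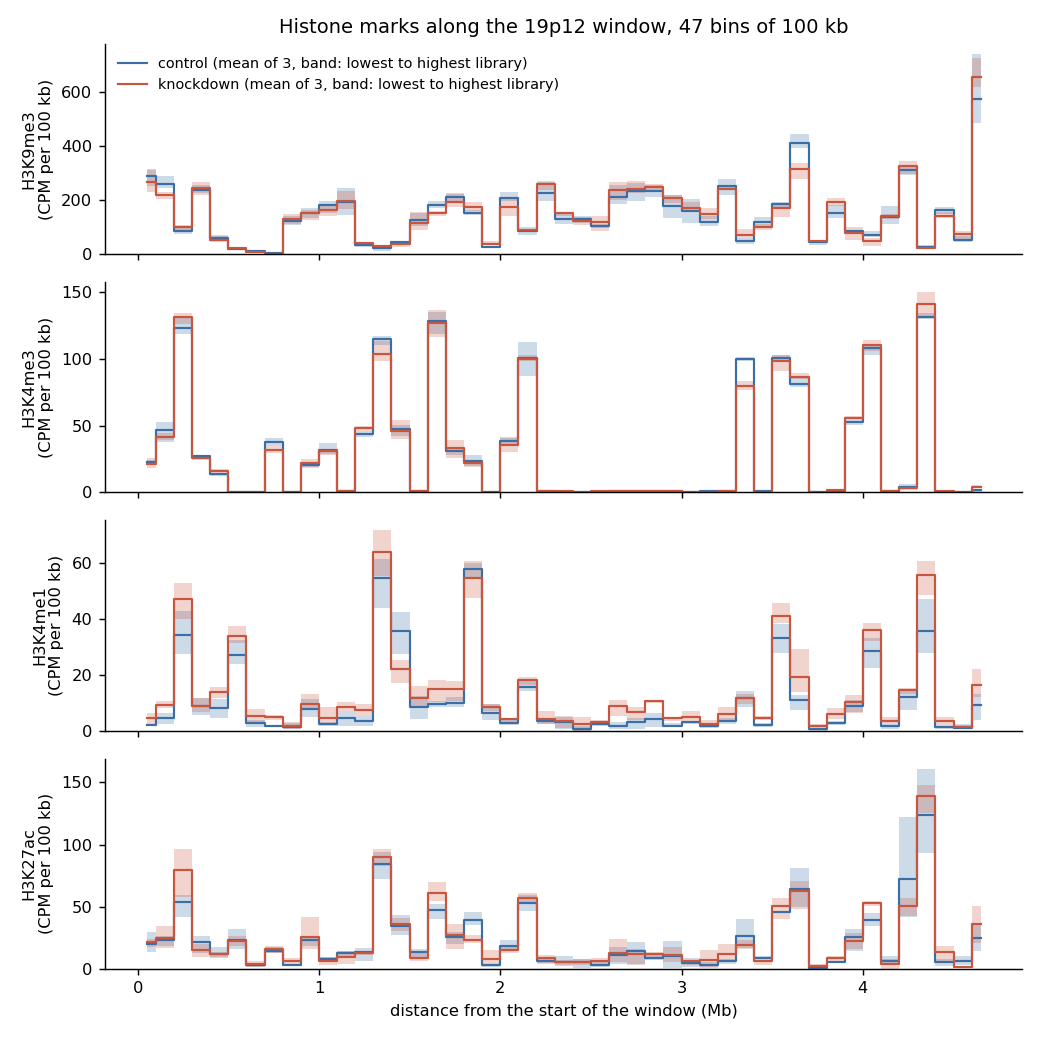
CPM per 100 kb of each mark against the distance from the start of the 19p12 window (Mb), as the mean of 3 libraries per group (lines) and the lowest to highest library (bands). H3K9me3 is above 10 CPM in 46 of the 47 bins and highest in the last (615 CPM), and H3K4me3 is above 10 CPM in 22 bins, with a long gap between.

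A stricter class, the top 10% of all regions in H3K4me3 (border 5.11 CPM per kb), held 34 members with strong H3K4me3. They ranged from 9.89 to 36.7 CPM per kb. The next member below, chr19:21767926-21771156, narrowly missed the border at 5.07 and was in the H3K9me3 class (10.9 CPM per kb of H3K9me3). The 34 were 992 to 2990 bp wide (median 1639 bp). None of the 34 was in the H3K9me3 class, though the highest had 9.57 CPM per kb of H3K9me3 against a class border of 10.34. Such an overlap was rare elsewhere too, in 87 of 15325 regions of this stricter class over the genome and 1 of 114 in 19q13.4. The medians of the 34 were 22.5 CPM per kb of H3K4me3, 6.0 of H3K27ac, 2.22 of H3K4me1 and 2.18 of H3K9me3. Among the 34, members with more H3K4me3 also tended to have more H3K27ac (Spearman rho 0.65) and more H3K4me1 (0.51), and less H3K9me3 (-0.33). These are descriptions across members of the same libraries, which share depth and mappability. Compared with the 114 strong H3K4me3 regions of 19q13.4, the 34 of 19p12 carried 1.67-fold less H3K4me1 (2.42 ± 0.523 against 3.98 ± 0.441 CPM per kb, SD, n = 6; p = 0.031 in the exact sign-flip test, 0.0938 after adjustment over the 3 marks compared). For H3K27ac the ratio was 0.882 (exact p = 0.0625) and for H3K9me3 it was 1.13 (exact p = 0.0938), and after adjustment none of the 3 passed 0.05.

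The broad H3K9me3 regions were picked outside the H3K4me3 class, so none of them could be a strong H3K4me3 member. There were 46 members at least 2 kb wide in the H3K9me3 class alone (median 3156 bp), with medians of 13.7 CPM per kb of H3K9me3 and 0.0694 of H3K4me3. The gap from a strong H3K4me3 member to the nearest of them had a median of 35.6 kb, a lower quartile of 24.6 kb, an upper quartile of 44.3 kb and a range of 6.78 to 160 kb. The same gap had a median of 20.3 kb in 19q13.4 and 315 kb in the rest of chromosome 19. This gap also depends on how many broad regions a window holds, 46 in 19p12 and 76 in 19q13.4. It was not compared with random placement. Of the 33 intervals between neighbouring strong H3K4me3 members, 16 held at least 1 broad H3K9me3 region and 17 held none. Whether a broad region is the end of the gene whose promoter is nearest was not analysed here.

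The longest interval without strong H3K4me3 was chr19:22035397-23257507, 1222 kb of the 4.7 Mb window. It held 228 members, of which 122 (53.5%) were in the H3K9me3 class, and 10 broad H3K9me3 regions. It accounted for 30.6% of the cluster's H3K9me3, 8.90% of its H3K27ac, 7.94% of its H3K4me1 and 0.735% of its H3K4me3. H3K9me3 over the interval was 2082 ± 266 CPM in control and 2269 ± 142 in knockdown (SD, n = 3 each; exact permutation p = 0.3). H3K4me1 there was low in both groups, 31.2 ± 12.8 CPM in control (16.4 to 39.3) and 59.9 ± 15.9 in knockdown (46.5 to 77.4), a log2 difference of 1.01 with an exact permutation p of 0.1, the smallest that 3 against 3 libraries allow. The groups did not overlap there.

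The member with the most H3K9me3 was chr19:24183477-24186236, 2760 bp wide. It had 217, 228 and 203 CPM in the 3 control libraries and 202, 215 and 193 in the knockdown libraries, and it ranked 286 among all regions. The groups overlapped. At 76.0 CPM per kb it also carried 56.3 CPM of H3K27ac, the second highest value of the cluster, with 10.5 CPM of H3K4me1 and 3.37 of H3K4me3, which put it in both the H3K9me3 and the H3K4me3 class. Its H3K27ac was 47.2, 112 and 40.7 CPM in control and 42.5, 47.7 and 47.8 in knockdown. The second control library alone stood far above the other 5: the log2 fold change of H3K27ac was -0.53 with it and 0.068 without it. Mappability was not checked for this member, and no region sequence was read here.

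The other members with the most H3K9me3 were broader and carried little else. In chr19:23107651-23117250 (9600 bp) H3K9me3 was 154, 132 and 134 CPM in control and 113, 122 and 118 in knockdown, so that the groups did not overlap, with a log2 fold change of -0.25 ± 0.17 (SE; edgeR adjusted p = 0.714). In chr19:23539110-23547129 (8020 bp) it was 139, 132 and 175 CPM in control and 98.4, 119 and 93.6 in knockdown, again without overlap (log2 fold change -0.52 ± 0.17, edgeR adjusted p = 0.332). The latter has the smallest adjusted p of all H3K9me3 members tested, and it misses the threshold of 0.05. In chr19:20987690-20993220 the groups overlapped at 136, 141 and 123 CPM in control and 115, 105 and 131 in knockdown. The remaining 6 of the 10 members with the most H3K9me3 had means of 90.2 to 121 CPM over the 6 libraries, and in each of them the groups overlapped. Of the 10, 9 had a log2 fold change between -0.52 and -0.09 and 1 had 0.08, and none passed the test.

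**Figure D3:**
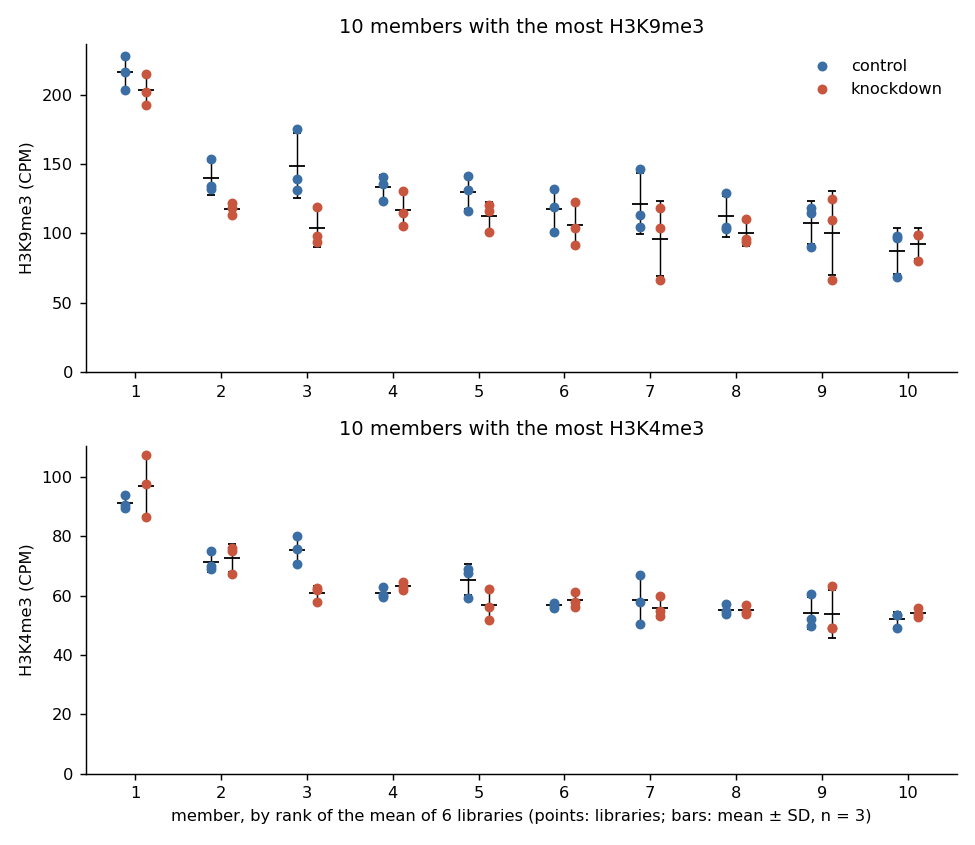
CPM of H3K9me3 (top) and H3K4me3 (bottom) in the 10 members with the most of each mark, per library (points) with mean ± SD (n = 3). The first H3K9me3 member stands at 193 to 228 CPM, and the third H3K4me3 member is one whose 3 knockdown libraries (57.8 to 62.7 CPM) lie below its 3 control libraries (70.7 to 80.1 CPM).

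The member with the most H3K4me3, chr19:24215794-24218783 (2990 bp), was also the one with the most H3K27ac. Its H3K4me3 was 90.7, 89.5 and 93.9 CPM in control and 97.5, 86.5 and 107 in knockdown, with the groups overlapping. Its H3K27ac was 61.3, 49.9 and 75.6 CPM in control and 59.9, 46.6 and 68.1 in knockdown. Its H3K4me1 was 10.6, 6.84 and 10.4 CPM in control and 20.5, 20.5 and 16.8 in knockdown, without overlap, at a log2 fold change of 1.05 ± 0.32 (edgeR adjusted p = 0.259). It had only 2.91 CPM of H3K9me3, and it lies 29.6 kb from the member with the most H3K9me3.

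A strong H3K4me3 member at the edge of the longest interval, chr19:23257508-23259362, had the highest H3K4me3 per kb of the cluster, 36.7. Its H3K4me3 was 80.1, 70.7 and 75.8 CPM in control and 61.8, 57.8 and 62.7 in knockdown, without overlap. The log2 fold change was -0.31 ± 0.08 (edgeR adjusted p = 0.124), the smallest adjusted p of the cluster in any mark, and it did not pass. A neighbour, chr19:23299428-23300893, had 21.1, 26.2 and 23.4 CPM in control and 15.7, 18.3 and 19.8 in knockdown (log2 fold change -0.39 ± 0.16, edgeR adjusted p = 0.395). The remaining members among the 10 with the most H3K4me3 had means of 53.1 to 72.1 CPM and groups that overlapped. Over the 34 strong members, all of them tested, the log2 fold change of H3K4me3 was above 0 in 17 and below 0 in 17 (range -0.39 to 0.29).

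Members of the H3K4me1 class were few. None of the 34 strong H3K4me3 members was among them (at most 4.78 CPM per kb of H3K4me1, against a class border of 9.69), while 7 of the 13 were in the wider H3K4me3 class. The highest, chr19:21785481-21788450 (2970 bp), had 38.1, 39.3 and 43.6 CPM of H3K4me1 in control and 34.5, 39.8 and 33.0 in knockdown, with overlap. Its H3K27ac was 26.5, 24.6 and 15.0 CPM in control and 12.6, 10.2 and 9.55 in knockdown, without overlap (log2 fold change -1.03 ± 0.42, edgeR adjusted p = 0.349). The next, chr19:23459893-23461487, had 19.7 ± 2.1 CPM of H3K4me1 in control and 21.3 ± 5.29 in knockdown, and a low H3K4me3 of 0.439 ± 0.290 CPM in control and 1.77 ± 0.251 in knockdown (log2 fold change 2.0 ± 0.66, edgeR adjusted p = 0.229, from 79 counts in 6 libraries). At chr19:24223873-24225549 H3K4me1 was 5.86, 3.91 and 8.31 CPM in control and 20, 9.04 and 14.9 in knockdown, without overlap. Its log2 fold change was 1.28 ± 0.40 (edgeR adjusted p = 0.258), and without control library 3 it was 1.57 and passed (edgeR adjusted p = 0.029). One further member passed without that library, chr19:20155031-20155839, with 1.58, 2.44 and 9.87 CPM of H3K4me1 in control and 10.6, 6.84 and 10.2 in knockdown, where control library 3 is the high one. Without that library 2.71% of 90015 tested regions of the genome passed in H3K4me1, and 2.90% of the 69 members tested (2 members), so the members' share was near that of all regions. For H3K27ac, chr19:23945384-23947424, a strong H3K4me3 member, had 19.3, 19.8 and 18.4 CPM in control and 44.9, 25.8 and 38.2 in knockdown (log2 fold change 0.92 ± 0.33, edgeR adjusted p = 0.284).

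The 5 members in both the H3K9me3 and the H3K4me3 class were unlike each other. Beside the member with the most H3K9me3 described above, chr19:21767926-21771156 (3231 bp) had 35.4 CPM of H3K9me3 and 16.4 of H3K4me3. The other 3, chr19:23254003-23254280, chr19:20748110-20748369 and chr19:23383149-23383407, were 259 to 278 bp wide, and their H3K4me3 was 0.611, 0.289 and 0.169 CPM. Under the top 10% in place of the top 20%, no member was in both classes.

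The comparison of knockdown with control asked whether any region of the cluster differed. With edgeR's quasi-likelihood test and Benjamini-Hochberg adjustment over all tested regions of the genome, 0 members passed an adjusted p of 0.05 in any mark: 0 of 311 tested in H3K9me3 (0.00982% of all tested regions passed), 0 of 39 in H3K4me3 (0.56%), 0 of 57 in H3K4me1 (0.0%) and 0 of 68 in H3K27ac (0.0114%). The remaining members had too few counts to be tested, and 1, 203, 144 and 118 members had no count in any of the 6 libraries of these marks. DESeq2 and limma-voom also called 0 members in each mark, but DESeq2 gave an adjusted p to only 17, 37, 50 and 39 of the members tested in these marks. At an unadjusted p under 0.05, edgeR had 24 members in H3K9me3, 15 of them with a higher mean in knockdown (8.31% of all tested regions). The same count was 5 in H3K4me3, 1 of them higher (10.2%), 4 in H3K4me1, all higher (10.5%), and 4 in H3K27ac, 3 of them higher (11.3%). These shares are 7.72% of the H3K9me3 members tested, 12.8% in H3K4me3, 7.02% in H3K4me1 and 5.88% in H3K27ac. Among H3K9me3 members of smallest p, the 3 higher (starts 24471704, 23250891 and 23763041) had log2 fold changes of 1.51, 1.55 and 1.48. The 3 lower (starts 23539110, 24307539 and 21626483) had -0.52, -0.68 and -1.63. In H3K4me1 the 3 higher had 1.28, 1.05 and 1.52. There, the 3 lower (starts 21310213, 21311381 and 20474595) had -0.85, -0.64 and -0.63.

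**Figure D4:**
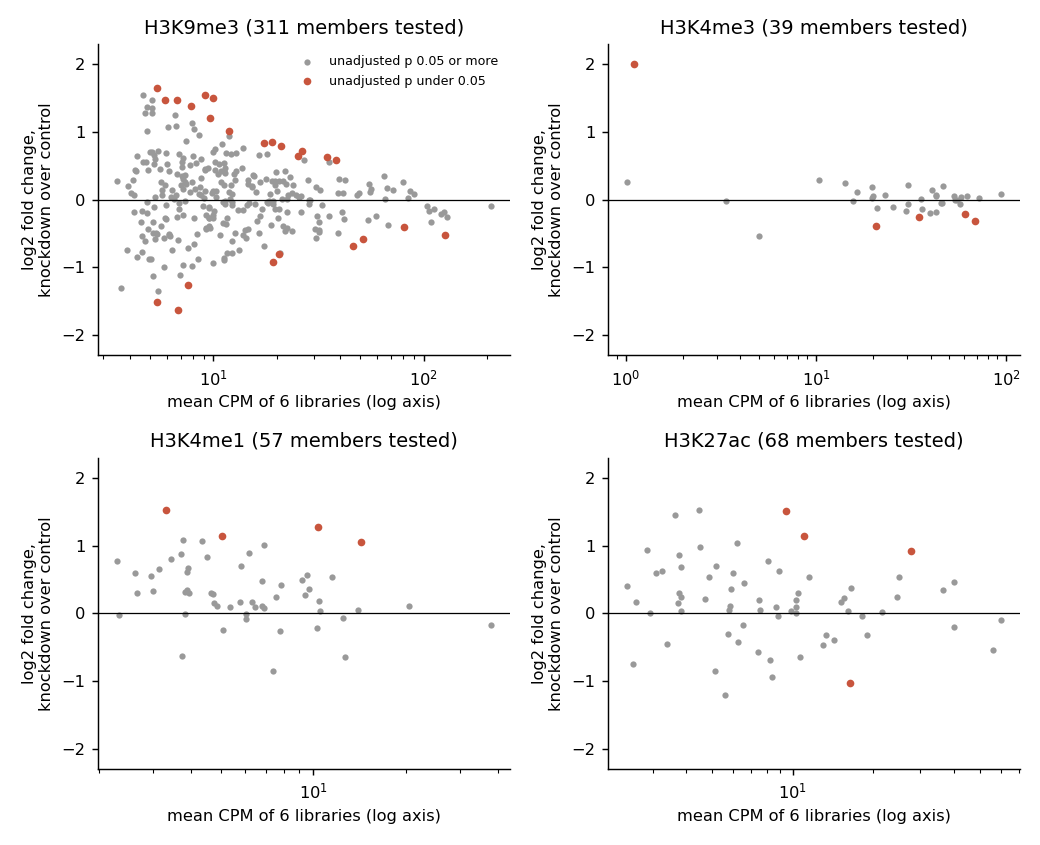
Log2 fold change, knockdown over control, against the mean CPM (log axis) of each tested member in the 4 marks; coloured points have an unadjusted p under 0.05 in edgeR. No member passed an adjusted p of 0.05. In H3K4me1 45 of 57 tested members lie above 0, against 47.8% of all tested regions, and a member could be tested through the group in which it was high.

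Counts of members whose 3 knockdown libraries lay wholly above or below the 3 control libraries were near those over all tested regions in H3K9me3 and H3K4me3. In H3K9me3 24 of 311 members lay above (7.17% of all tested regions did) and 23 below (7.19%). In H3K4me3 3 of 39 lay above (8.49%) and 3 below (7.74%). In H3K4me1 6 of 57 lay above (7.9%) and 1 below (7.68%), and in H3K27ac 5 of 68 lay above (9.14%) and 1 below (8.37%). The log2 fold change of H3K4me1 was above 0 in 45 of the 57 members tested, with a median of 0.30 against -0.03 over all tested regions (47.8% of them above 0). That median was 0.14 under the strict filter on low counts (13 of 19 members above 0). In the H3K9me3 class, the log2 fold change of H3K4me1 was above 0 in 4 of 5 members tested and in 77.8% of all tested regions of that class. Among strong H3K4me3 regions it was above 0 in 16 of 21 members tested and in 58.6% of all such regions tested. In H3K27ac it was above 0 in 47 of 68 (47.2% of all tested regions), with a median of 0.16 against -0.05. That median was 0.014 under the strict filter on low counts (13 of 26 members above 0), 0.090 without control library 1 and 0.30 without knockdown library 1, and 40 of 68 members were above 0 with library totals alone. These counts cover only the few members that had enough counts to be tested, and a member could pass that filter through the group in which it was high, so they describe the tested members and not the cluster.

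Over all 667 members, the share of a library's counts that fell in the cluster was compared library by library. For H3K9me3 it was 0.624%, 0.601% and 0.636% in control and 0.564%, 0.569% and 0.632% in knockdown, with overlapping groups (exact permutation p = 0.3, two-sided). The difference was -0.0319 percentage points, and 0.00653 with the TMM-scaled library size as the denominator. For H3K4me3 it was 0.140%, 0.143% and 0.145% in control and 0.145%, 0.139% and 0.137% in knockdown (exact p = 0.5). For H3K27ac it was 0.0860%, 0.0997% and 0.105% in control and 0.0912%, 0.111% and 0.104% in knockdown (exact p = 0.6), and the difference of 0.00508 points was -0.000425 without control library 1. For H3K4me1 it was 0.0436%, 0.0471% and 0.0507% in control and 0.0653%, 0.0641% and 0.0619% in knockdown. H3K4me1 was the mark whose groups did not overlap, at a ratio of 1.35 between the means (0.0471 ± 0.00355% and 0.0637 ± 0.00172%, SD, n = 3 each; exact permutation p = 0.1, the smallest that 3 against 3 allow, and 0.4 after adjustment over the 4 marks).

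**Figure D5:**
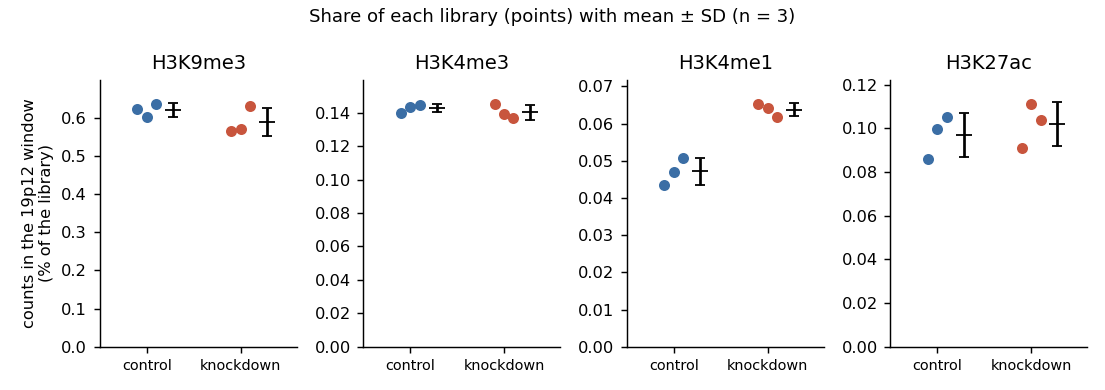
Counts in the 19p12 window as a percent of all counts of the library, per library (points) with mean ± SD (n = 3), in the 4 marks. In H3K4me1 the 3 knockdown libraries (0.0619% to 0.0653%) lie above the 3 control libraries (0.0436% to 0.0507%), and in the other 3 marks the groups overlap.

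H3K4me1 had a higher mean in knockdown outside 19p12 too. In 19q13.4 the H3K4me1 share was 0.175 ± 0.00932% in control and 0.216 ± 0.00589% in knockdown (SD, n = 3 each), a ratio of 1.23 with an exact permutation p of 0.1, and the ratio of the densities of the 2 clusters differed between the groups by 0.14 on the log2 scale (exact p = 0.1, 0.4 after adjustment over the 4 marks). Summed over the 325 members of the H3K9me3 class, H3K4me1 was 94 ± 23.9 CPM in control and 139 ± 15.1 in knockdown, a log2 difference of 0.59, and over the 30324 other regions of that class in the genome it was 0.66 (exact permutation p = 0.1 for both). Summed over the 49 members of the H3K4me3 class, H3K4me1 was 236, 227 and 255 CPM in control and 317, 290 and 278 in knockdown, without overlap, a log2 difference of 0.30. Over the 30600 other regions of that class the difference was -0.01 (exact p = 0.7), and the difference of the 2 differences was 0.31 (exact p = 0.1, the smallest possible, and 0.4 after adjustment over 8 comparisons). The share of all regions with no H3K4me1 count was 22.9% to 25.4% in the control libraries and 19.6% to 21.9% in the knockdown libraries. Like the cluster's share, it did not overlap between the groups, but it was lower in knockdown, where the cluster's share was higher. Its part in the result was not tested.

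The main marks of the cluster's classes had sums that overlapped between the groups. H3K9me3 over the H3K9me3 class was 5151 ± 245 CPM in control and 5039 ± 245 in knockdown (SD, n = 3 each; log2 difference -0.03, exact permutation p = 0.5; 0.00717 without control library 3). The difference was -0.17 with classes set on the control libraries alone (exact p = 0.2) and -0.084 with the top 10% (exact p = 0.3). H3K4me3 over the H3K4me3 class was 1410 ± 25.2 CPM in control and 1389 ± 55.0 in knockdown (log2 difference -0.02, exact permutation p = 0.6). Only the 193 members of the H3K9me3 class that had enough counts entered the test by region, while the sums cover all of its members.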

How the data were processed

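The deposited files, which have no header, hold whole read counts per region over the same regions in all libraries, and their values show no normalization by the authors. Bowtie2 2.4.5, bedtools 2.30.0 and deepTools 3.5.4 and the build hg19 are named in the submitters' processing notes, without their roles; the sources used here do not say how the regions were chosen. Of the counts above 0, 51.9% to 65.9% per library were even, so both mates of a pair may have been counted. Starts were taken as 0-based and are printed 1-based.

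Each mark was fitted alone with edgeR 4.0.16 (R 4.3.3; filterByExpr, TMM, robust quasi-likelihood test, Benjamini-Hochberg over all tested regions), 3 control against 3 knockdown libraries, after a test on simulated data. Single values were compared by exact permutation. The alternatives were DESeq2, limma-voom, other scalings, filters, class rules and windows, and leaving out each library. Promoter identity was computed with Biopython. Members named were drawn from the 10 with the most H3K9me3 and H3K4me3 and the 5 with the most H3K4me1 and H3K27ac. Others came from the 3 higher and 3 lower of smallest p per mark, or were in both classes. Not all members under these rules are printed. The strong members, intervals and bins named were chosen after their values were seen. The members and lists were chosen with earlier results of these data known.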

Additional observations from a re-analysis of the deposited data

How the results depend on the processing

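With 3 libraries per group no permutation test could go below 0.1, and the low counts of H3K4me1 and H3K27ac in the cluster left most members untested. The difference in the H3K9me3 share (knockdown minus control, in percentage points) was -0.03 and turned to 0.00653 with the TMM-scaled library size as denominator. Leaving out 1 library at a time, that share difference ran from -0.0535 to -0.0198 points, that of H3K4me3 from -0.00471 to -0.000439, that of H3K4me1 from 0.0148 to 0.0184 and that of H3K27ac from -0.000425 (without control replicate 1) to 0.0105. The H3K9me3 class sum ran from -0.0716 to 0.00717 (log2; the positive value without control replicate 3; -0.17 with classes from control libraries and -0.084 with top 10% classes) and the H3K4me3 class sum from -0.0547 to -0.00488. The members called ran from 0 to 2 in H3K4me1 (2 of 69, or 2.90%, without control replicate 3, where 2.71% of all tested regions passed) and stayed at 0 in the other marks. The log2 density ratio to 19q13.4 ran from 0.20 to 0.26 in H3K9me3, -1.53 to -1.50 in H3K4me3, -1.14 to -1.08 in H3K4me1 and -1.18 to -1.10 in H3K27ac, each with an exact p of 0.0625, the smallest that 5 libraries allow. The log2 fold change of H3K27ac at chr19:24183477-24186236 ran from -0.74 to 0.068, the latter without control replicate 2.

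With classes set at the top 10%, 22.9% of members were in the H3K9me3 class, 5.10% in the H3K4me3 class and 0% in both; with CPM per region in place of CPM per kb, 3.45% were in both. Without the member with the most H3K9me3, an alternative chosen after its values were seen, the share differences were -0.0296 (H3K9me3), -0.00227 (H3K4me3), 0.0165 (H3K4me1) and 0.00698 (H3K27ac) points. The labels do not say whether libraries of equal replicate number form pairs. The correlations of their deviations ran from -0.10 to 0.06, which cannot exclude pairing, since noise from low counts also keeps such correlations small. With the replicate number as a block, 0 members were called in each mark, and the H3K4me1 share difference of 0.0166 points had an exact sign-flip p of 0.25, the smallest that 3 pairs allow. The density by medians per kb is given for H3K9me3 alone (0.25), since the medians of the other marks include 0.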
